A study of Mus musculus with 17 samples.

Results

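The response of 3134 mouse mammary epithelial cells to a dominant-negative Brg1 (dnBrg1) was compared with the response of the same cells to a dominant-negative Snf2h (dnSnf2h), as the difference between 2 inductions: induced minus repressed in the dnBrg1 line, less induced minus repressed in the dnSnf2h line. The comparison used 8 of the 17 arrays of the study, chosen by their labels: 2 repressed and 2 induced arrays in each of the 2 lines. Both lines descend from a parent line, 3134Tet, in which tetracycline holds a transactivator silent, and each had taken up a stably integrated Flag-tagged transgene under that system. Stocks were kept in 5 µg/ml tetracycline. Cells were then plated in medium with charcoal-dextran-treated serum, with the drug (repressed) or without it (induced), for 48 h. Removing the drug switched on the transactivator in both lines together with the dominant-negative protein, so both inductions include drug removal and the transactivator. Whether these act equally in the 2 lines was not tested. The labels do not say whether a line is 1 clone or a pool. Nor do they give the origin of the replicate arrays (separate cultures or repeats of one), so every p-value here is set against array-to-array spread that could be purely technical. The other 9 arrays, of the control line and of a dnChd4 line, were left out of the fit.

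Brg1 (gene Smarca4) is an ATPase of the SWI/SNF complexes, which slide and evict nucleosomes and open regulatory DNA. Snf2h (gene Smarca5) is the ATPase of ISWI complexes, which space nucleosomes evenly along DNA. A dominant-negative form is made to occupy the complex without doing the ATPase's work. Both enzymes are used by the glucocorticoid receptor and other regulators in this cell line, and the study was set up to compare remodelers acting in the same cells.

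The array medians lay between 5.51 and 5.63 on the log2 scale. Replicates correlated at 0.9936 to 0.9983 across the 19938 genes, which are not independent of one another. The repressed dnSnf2h pair was the least alike, with 15 genes apart by 1 or more on the log2 scale, against 0 to 2 in the other pairs. Smarca4 read 9.66 and 9.46 on the repressed and 9.61 and 9.73 on the induced dnBrg1 arrays. Smarca5 read 9.69 and 9.81 on the repressed and 9.43 and 9.59 on the induced dnSnf2h arrays. Neither gene passed the test in its own line, and since the labels do not give the species of the transgenes or the part of the gene they hold, these probe sets are no check of induction. Of 20 epithelial markers, 5 or 6 on each array lay under 4.77, the upper bound of the dimmest 30% of genes. Epcam was one of these, between 4.10 and 4.19 on the 8 arrays. Cdh1 lay between 5.04 and 5.24, below the array medians, and Krt14, a basal keratin, between 5.82 and 9.02. In a bulk sample fewer cells of a type and less RNA per cell cannot be told apart.

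The induction differed between the lines for 65 of 19938 genes (0.326%) at a limma adjusted p below 0.05: 34 (0.171%) were higher with dnBrg1, meaning a more positive or less negative induction in that line, and 31 (0.155%) lower. The genes that set the lines apart were few beside those that moved in either line: 2199 genes (11.0%) passed in the dnBrg1 induction, with 1250 rising (6.27%) and 949 falling (4.76%), and 2817 (14.1%) in the dnSnf2h induction, with 1477 rising (7.41%) and 1340 falling (6.72%). The smallest difference that passed was 0.75 on the log2 scale, and 43 of the 65 were at least 1. Over all genes the median difference was -0.02, with 9283 genes above 0 and 10655 below. Centring each array on its median adds the same amount to every gene's difference, and moved this median to 0.05. Counts of list members called, or lying on one side of 0, stand beside the shares of all genes given here. The difference carries the error of 4 group means (median SE 0.165, against 0.117 for the dnBrg1 induction). By limma 1563 of the 19938 genes had an unadjusted p below 0.05, and the list counts at that p below stand beside this share. A gene that is not called here was therefore not shown to respond alike. With 0.326% of genes called, a gene list with 0 calls was likewise not shown to respond alike.

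The count rested on few arrays. Leaving out either repressed or either induced dnBrg1 array left 15 to 18 calls, and leaving out an induced dnSnf2h array left 22 or 36. Without the second repressed dnSnf2h array there were 88 calls, with 51 lower in place of 31. Fitting all 17 arrays together left 7 calls, Auts2, Ccl7, Cd36, Csnk1g1, Hs3st1, Mmp3 and Slc40a1, and fitting the 12 arrays of 3 dominant-negative lines gave 126. Centring each array on its median gave 37 higher and 19 lower, in place of 34 and 31. The genes called in every one of the 8 leave-one-out fits were 13: Acta2, Adgrg1, Aldh1a1, Auts2, Ccl7, Cd36, Csnk1g1, Cyp2b13, Hs3st1, Rptor, Slc40a1, Sting1 and Tnnt2.

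**Figure D1:**
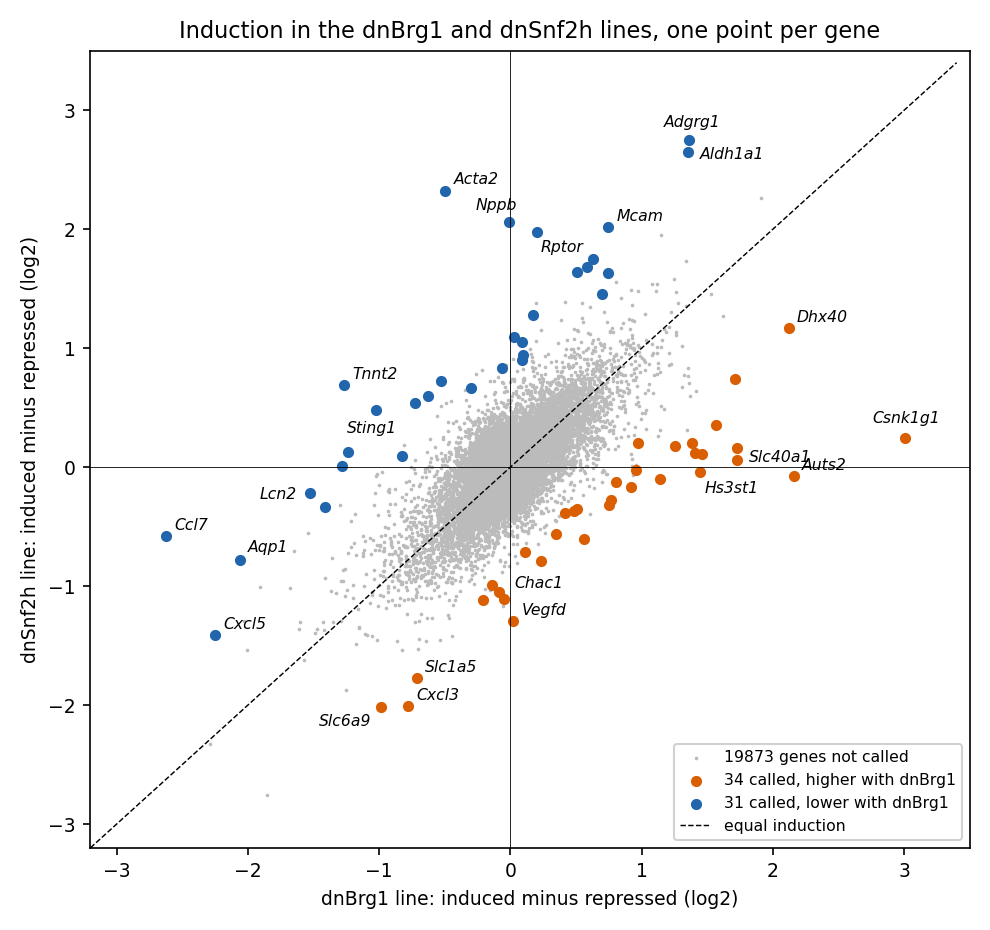
Each point is a gene, placed by its induced-minus-repressed change (log2) in the dnBrg1 line (x) and in the dnSnf2h line (y). The 34 genes called higher with dnBrg1 (orange) lie below the dashed line of equal induction and the 31 called lower (blue) above it, with Csnk1g1 farthest to the right and Acta2 high on the left.

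The genes raised most by dnBrg1 relative to dnSnf2h rose in the dnBrg1 line and were not called in the dnSnf2h line. Csnk1g1, a casein kinase gene, read 7.30 and 7.02 on the repressed and 10.13 and 10.21 on the induced dnBrg1 arrays. In the dnSnf2h line it read 7.06 and 7.46, then 7.53 and 7.49. Its induced dnBrg1 arrays stood alone, and the difference was 2.76 (SE 0.20, limma adjusted p = 0.000205), a 6.8-fold larger induction. Auts2, a gene for a Polycomb-associated protein, went from 4.98 and 4.91 to 6.97 and 7.23 in the dnBrg1 line, and from 4.87 and 4.61 to 4.62 and 4.71 in the dnSnf2h line. Again only the induced dnBrg1 arrays were high, with a difference of 2.23 (SE 0.18, adjusted p = 0.000292).

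Slc40a1, Hs3st1 and Cd36 also rose with dnBrg1 without a call in the dnSnf2h line. Slc40a1, the iron exporter ferroportin, read 4.77 and 4.75, then 6.58 and 6.39 in the dnBrg1 line, against 3.90 and 3.66, then 3.95 and 3.74 in the dnSnf2h line (difference 1.66, SE 0.17, adjusted p = 0.00149). Hs3st1, a heparan sulfate sulfotransferase, read 5.88 and 5.78, then 7.23 and 7.32 with dnBrg1, and stayed between 4.81 and 4.90 on the dnSnf2h arrays (difference 1.48, SE 0.14, adjusted p = 0.00102). Cd36, a scavenger receptor that takes up fatty acids, read 4.48 and 4.60, then 5.91 and 5.98 with dnBrg1, and between 3.33 and 3.56 with dnSnf2h (difference 1.29, SE 0.15, adjusted p = 0.00291). All 3 genes began higher in the repressed dnBrg1 line than in the repressed dnSnf2h line. Slc40a1 and Cd36 had repressed means under the dim bound of 4.77 in both lines.

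In all, 16 genes rose with dnBrg1 without a call in the dnSnf2h line. Besides these 5 they were Cyp2b13 (difference 1.57), Serpini1, the protease inhibitor neuroserpin (1.35), Ablim1, an actin-binding protein (1.23), Atp8b5 (1.19), Msln, the surface protein mesothelin (1.09), Aldh3b1, an aldehyde dehydrogenase (1.08), Plaur, the urokinase receptor (1.07), Bnip3, a mitophagy receptor (1.04), Selenop, a selenium carrier (0.98), Il17rc, a cytokine receptor subunit (0.93), and Tor3a (0.77). Bnip3 has a second probe set, whose difference was 0.66 (adjusted p = 0.164). Another 3 genes rose in both lines and more with dnBrg1: Mfsd13a (1.56 against 0.35), Rnd1 (1.71 against 0.74), and Dhx40, a helicase (2.12 against 1.17). Of the iron and heme list, 1 of 25 measured genes was called, Slc40a1, and the list's median was 0.15. Hmox1, the enzyme that breaks down heme, rose by 1.36 in the dnBrg1 line and by 0.71 in the dnSnf2h line, a difference of 0.66 that did not pass (adjusted p = 0.223). Of 11 adipocyte markers Cd36 alone was called; Adipoq lay between 4.04 and 4.37 on all 8 arrays, under the dim bound.

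**Figure D2:**
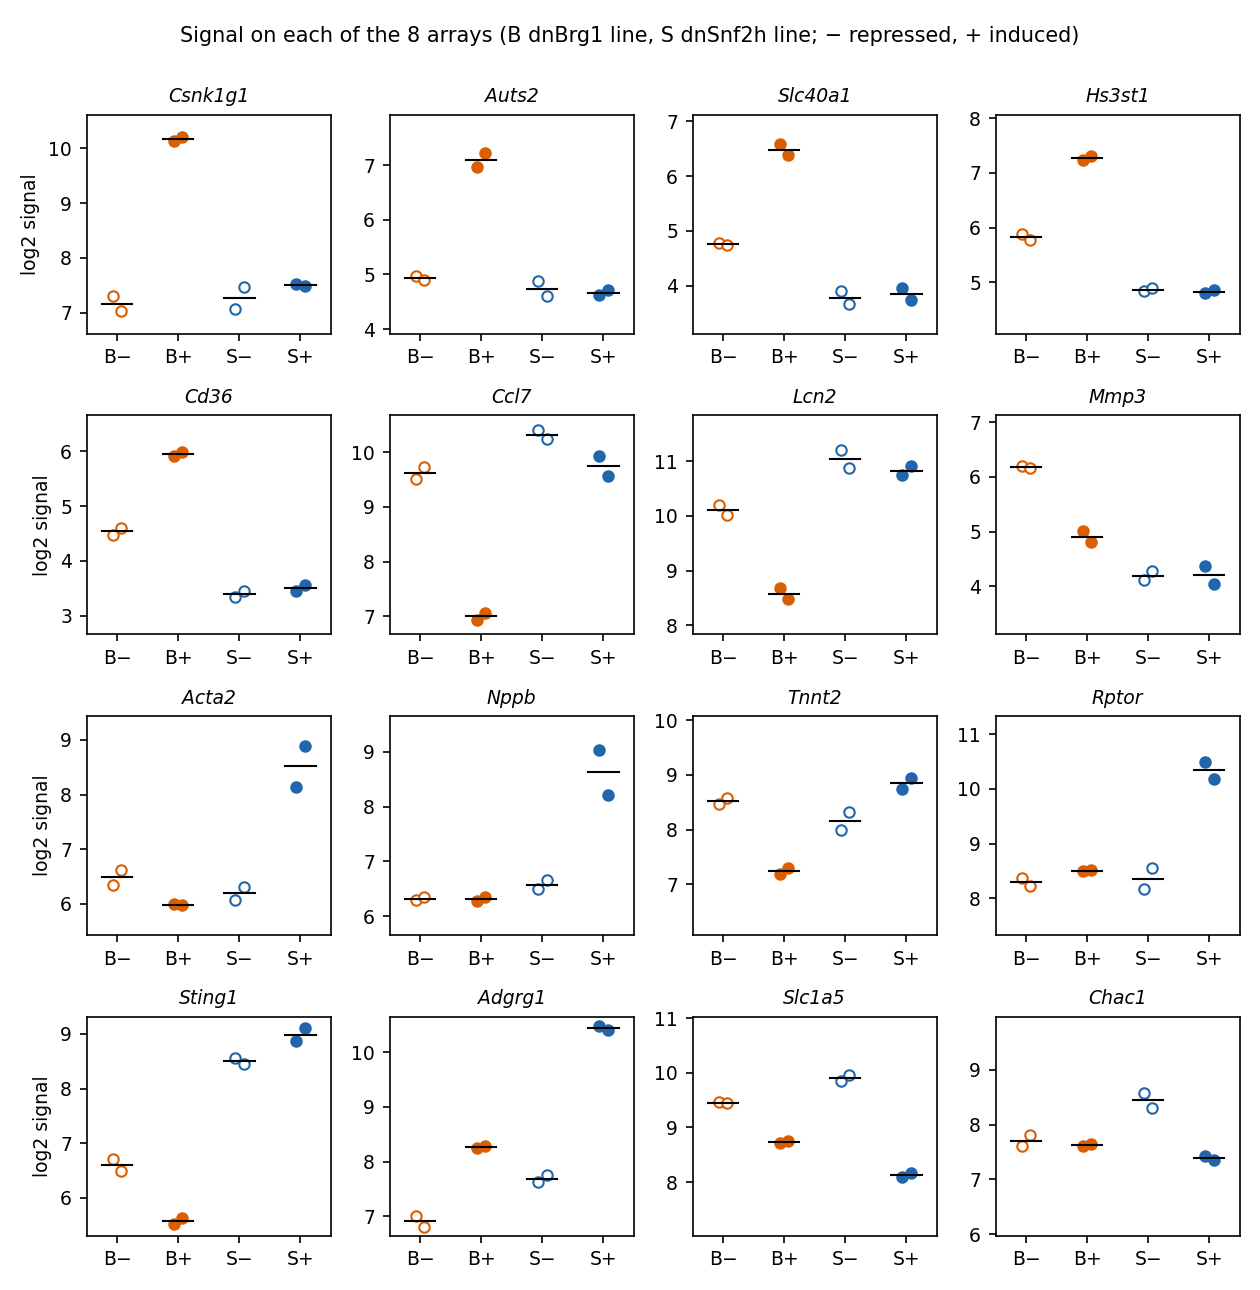
Log2 signal (y) of 16 called genes on each of the 8 arrays, with the dnBrg1 line in orange and the dnSnf2h line in blue, repressed arrays open, induced arrays filled and a bar at each group mean; every panel spans the same height. Csnk1g1, Auts2, Slc40a1, Hs3st1 and Cd36 are high only where dnBrg1 was induced, while Acta2, Nppb and Rptor are high only where dnSnf2h was induced.

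The genes lower with dnBrg1 included 3 chemokine genes that fell in the dnBrg1 line, Ccl7, Ccl2 and Cxcl5. Ccl7, a monocyte-attracting chemokine, read 9.52 and 9.73 on the repressed and 6.94 and 7.06 on the induced dnBrg1 arrays. In the dnSnf2h line it read 10.41 and 10.24, then 9.93 and 9.56. It fell in both lines, by 2.62 and by 0.58, and the fall was larger with dnBrg1 by 2.05 (SE 0.19, adjusted p = 0.00102). Ccl2, the neighbouring monocyte chemokine gene, read 10.41 and 10.32, then 9.59 and 9.50 with dnBrg1, against 10.41 and 10.17, then 10.43 and 10.34 with dnSnf2h. Only the induced dnBrg1 arrays were low (difference -0.92, SE 0.16, adjusted p = 0.0355). The 2 genes lie side by side on chromosome 11 in the RefSeq gene order of GRCm38.p6, with 0 protein-coding genes between them.

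A pair of chemokine genes on chromosome 5 went opposite ways relative to each other, with 2 protein-coding genes between them. Cxcl5, which attracts neutrophils, read 10.08 and 9.96, then 7.81 and 7.72 with dnBrg1, and 10.16 and 10.06, then 8.79 and 8.61 with dnSnf2h. It fell in both lines, more with dnBrg1 (difference -0.84, SE 0.15, adjusted p = 0.048). Cxcl3, another neutrophil chemokine, read 6.38 and 6.31, then 5.68 and 5.44 with dnBrg1, and 7.93 and 8.05, then 5.93 and 6.03 with dnSnf2h. It also fell in both, but more with dnSnf2h (difference 1.23, SE 0.16, adjusted p = 0.00721), from a higher starting level in the dnSnf2h line. Of 20 chemokine genes, 1 was called higher and 3 lower, 8 (40.0%) had an unadjusted limma p below 0.05, and the list's median was -0.07. Ccl2 and Cxcl5 lost their calls under quantile normalization and under median centring. Cxcl12 fell by 1.91 with dnBrg1 and by 1.00 with dnSnf2h, a difference of -0.90 that did not pass (adjusted p = 0.0644).

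Acute-phase genes behaved in more than 1 way. Lcn2, an iron-siderophore-binding protein of the acute-phase response, read 10.20 and 10.02, then 8.69 and 8.47 with dnBrg1, against 11.20 and 10.87, then 10.74 and 10.90 with dnSnf2h (difference -1.32, SE 0.19, adjusted p = 0.0111). Ptx3, a pentraxin that recognises microbes, read 7.21 and 7.34, then 6.06 and 6.03 with dnBrg1, against 6.83 and 6.46, then 6.93 and 6.61 with dnSnf2h (difference -1.36, SE 0.20, adjusted p = 0.013). Both were low only where dnBrg1 was induced. Saa3, a serum amyloid gene, changed by -2.03 with dnBrg1 and -1.29 with dnSnf2h, and Cp, the copper ferroxidase ceruloplasmin, by -2.01 and -1.54, all 4 of them called falls. Their differences of -0.74 (adjusted p = 0.124) and -0.47 (adjusted p = 0.526) did not pass. Of 16 measured acute-phase genes, 2 were called lower and 0 higher, with a median of -0.09. Among 17 NF-kB subunits and feedback genes 0 were called in the difference by limma and 1 had an unadjusted p below 0.05, and the median was 0.02.

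Mmp3, Loxl1 and Aqp1 also fell with dnBrg1. Mmp3, the matrix protease stromelysin, read 6.21 and 6.17, then 5.00 and 4.82 with dnBrg1, and between 4.04 and 4.37 on the 4 dnSnf2h arrays (difference -1.29, SE 0.18, adjusted p = 0.0103). The dnSnf2h arrays lay under the dim bound, so a fall there could not be measured well. Loxl1, which crosslinks elastin, fell by 1.41 with dnBrg1 and changed by -0.33 with dnSnf2h, which did not pass (difference -1.07, adjusted p = 0.0108). Aqp1, a water channel, read 10.26 and 10.23, then 8.21 and 8.14 with dnBrg1, and 9.96 and 10.16, then 8.99 and 9.57 with dnSnf2h; it fell in both lines (difference -1.28, SE 0.23, adjusted p = 0.0387). Among 36 extracellular matrix genes 0 were called in the difference by limma. Of these 36, 8 (22.2%) had an unadjusted p below 0.05, against 1563 of all 19938 genes. Among 24 matrix proteases and inhibitors 1 was called higher (Plaur) and 1 lower (Mmp3), and 7 (29.2%) had such a p.

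The largest difference in either direction was in a contractile gene. Acta2, the smooth muscle actin of myoepithelial cells and myofibroblasts, read 6.35 and 6.62, then 6.01 and 5.97 in the dnBrg1 line, and 6.08 and 6.31, then 8.14 and 8.89 in the dnSnf2h line. The induced dnSnf2h arrays stood above the other 6. The difference was -2.82 (SE 0.28, adjusted p = 0.0011), a 7.06-fold smaller induction with dnBrg1. Nppb, a natriuretic peptide gene of strained heart muscle, read 6.29 and 6.35, then 6.27 and 6.34 with dnBrg1, and 6.49 and 6.65, then 9.04 and 8.22 with dnSnf2h (difference -2.07, SE 0.28, adjusted p = 0.00847). Its 2 induced dnSnf2h arrays were far apart but both above the rest.

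Tnnt2, the troponin T of heart muscle, moved in both lines and in opposite directions: 8.46 and 8.57, then 7.20 and 7.30 with dnBrg1, and 8.0 and 8.33, then 8.75 and 8.95 with dnSnf2h. It fell by 1.27 and rose by 0.69, a difference of -1.96 (SE 0.18, adjusted p = 0.00102). The rest of the contractile program was less marked. Of 20 smooth muscle contractile genes, 1 was called lower and 0 higher. The list's median was -0.05, or 0.02 after median centring, beside -0.02 and 0.05 for all genes. Actg2, a second smooth muscle actin, rose by 0.91 with dnSnf2h and changed by 0.02 with dnBrg1 (difference -0.89, adjusted p = 0.161), and Tagln, an actin-binding protein of smooth muscle, rose by 0.60 and changed by 0.06 (difference -0.54, adjusted p = 0.355). The list's mean level was 7.71 to 7.77 in every group but the induced dnSnf2h arrays, where it was 7.87 and 8.0.

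Serum response factor drives muscle genes from CArG boxes, so the promoters of Acta2 and Nppb, the genes with the most negative differences, are shown, from RefSeq on GRCm38.p6, from 250 bases before to 50 after the start of the gene. The Acta2 window is chr19:34255324-34255623 on the minus strand, and that of Nppb is chr4:147985650-147985949 on the plus strand. Capitals mark CArG-like boxes, searched on both strands as CC, then 6 bases of which at least 5 are A or T, then GG. This motif was added after the values were seen.
Acta2: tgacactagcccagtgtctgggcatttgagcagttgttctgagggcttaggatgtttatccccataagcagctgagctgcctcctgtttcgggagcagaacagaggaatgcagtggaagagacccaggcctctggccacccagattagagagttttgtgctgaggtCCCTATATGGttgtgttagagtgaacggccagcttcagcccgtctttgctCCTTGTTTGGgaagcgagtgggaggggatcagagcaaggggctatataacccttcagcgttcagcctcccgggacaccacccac
Nppb: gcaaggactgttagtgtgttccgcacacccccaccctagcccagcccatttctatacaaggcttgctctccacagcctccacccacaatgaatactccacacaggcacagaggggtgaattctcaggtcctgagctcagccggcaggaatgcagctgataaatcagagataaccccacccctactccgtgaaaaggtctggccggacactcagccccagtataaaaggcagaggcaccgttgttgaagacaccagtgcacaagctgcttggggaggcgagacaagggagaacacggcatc
Acta2 holds 2 such boxes, beginning 84 and 34 bases before the start, and the Nppb window holds 0. A box of this kind is common: 1669 of the 15614 tested genes with a window (10.7%) hold one, as do 3 of 20 genes called lower with a window (Acta2, Adgrg1 and Fkbpl) and 3 of 26 called higher (Blnk, Ddit4 and Vegfd). With all 6 inner bases A or T, 254 genes (1.63%) hold one, and none of the called genes with a window does.

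Several genes that rose in both lines rose more with dnSnf2h. Adgrg1, an adhesion G protein-coupled receptor, read 7.01 and 6.81, then 8.25 and 8.29 with dnBrg1, and 7.62 and 7.76, then 10.49 and 10.40 with dnSnf2h. It rose by 1.36 and by 2.75, a difference of -1.39 (SE 0.16, adjusted p = 0.00288). Aldh1a1, which makes retinoic acid from retinal, rose by 1.35 and by 2.65 (difference -1.29, adjusted p = 0.00307). Mcam, an adhesion molecule of the immunoglobulin family, rose by 0.74 and by 2.02 (difference -1.28), and Lcp1, an actin-bundling protein, by 0.58 and by 1.68 (difference -1.10). The other 4 were Stap2, a signalling adaptor (-1.13), Fkbpl (-1.12), Gprc5a, an orphan receptor (-0.89), and Tmem267 (-0.75). These 8 genes rose in both lines and the difference is one of size.

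Another 10 genes rose with dnSnf2h without a call in the dnBrg1 line, Acta2 and Nppb among them. Rptor, the raptor subunit of the growth kinase complex mTORC, read 8.38 and 8.22, then 8.49 and 8.51 with dnBrg1, and 8.16 and 8.56, then 10.50 and 10.18 with dnSnf2h. The induced dnSnf2h arrays stood apart from the other 6 (difference -1.78, SE 0.20, adjusted p = 0.00291). Clu, the secreted chaperone clusterin, rose by 1.28 with dnSnf2h (difference -1.11), and Gdpd1 by 1.09 (difference -1.06). Klhl24 (-0.97), Ttll7, a tubulin-modifying enzyme (-0.96), Inpp5j, an inositol phosphatase (-0.90), Pla2g2e, a secreted phospholipase (-0.85), and Zfp579 (-0.82) made up the rest. Ttll7 has a second probe set, whose difference was -0.79 (adjusted p = 0.163). Gdpd1 lies on chromosome 11 with 1 protein-coding gene between it and Dhx40, which was called in the other direction.

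Of the called genes, 4 belonged to the ATF4 and amino acid stress list, all on the higher side. ATF4 is the transcription factor that raises amino acid transport and synthesis when amino acids are short or proteins misfold. Of 29 genes on the ATF4 list, 12 fell and 2 rose in the dnBrg1 induction, and 20 fell and 1 rose in the dnSnf2h induction. Among all genes 4.76% fell and 6.27% rose with dnBrg1, and 6.72% fell and 7.41% rose with dnSnf2h. In the difference 4 members were called higher and 0 lower, against 0.171% and 0.155% of all genes. By limma 19 (65.5%) had an unadjusted p below 0.05, against 1563 of all 19938 genes. On the list 23 lay above 0 and 6 below, against 9283 and 10655 of all genes. The list's median was 0.56, beside -0.02 for all genes. The list's median was 0.43 under quantile normalization and 0.63 after median centring, beside -0.0003 and 0.05 for all genes. There were 4 calls each time.

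The 4 called members were 3 amino acid carriers and an enzyme. Slc1a5, which imports glutamine, read 9.46 and 9.44, then 8.72 and 8.76 with dnBrg1, and 9.85 and 9.96, then 8.09 and 8.17 with dnSnf2h (difference 1.06, SE 0.14, adjusted p = 0.00834). Slc6a9, a glycine transporter, read 8.80 and 8.92, then 7.92 and 7.84 with dnBrg1, and 9.48 and 9.50, then 7.35 and 7.60 with dnSnf2h (difference 1.03, SE 0.16, adjusted p = 0.0178). Both began higher and ended lower in the dnSnf2h line. Slc7a5, which exchanges large neutral amino acids, read 10.94 and 10.81, then 10.74 and 10.59 with dnBrg1, and 11.23 and 11.20, then 10.06 and 10.15 with dnSnf2h (difference 0.90, SE 0.15, adjusted p = 0.0271). Chac1, which degrades glutathione, read 7.60 and 7.81, then 7.61 and 7.64 with dnBrg1, and 8.59 and 8.31, then 7.44 and 7.35 with dnSnf2h (difference 0.97, SE 0.17, adjusted p = 0.0383). Slc7a5 and Chac1 fell with dnSnf2h and were not called with dnBrg1.

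Other members fell in both lines with a difference that did not pass. Slc7a11, the cystine importer, fell by 1.85 with dnBrg1 and by 2.75 with dnSnf2h (difference 0.90, adjusted p = 0.0599). Slc1a4, a neutral amino acid carrier, gave 0.81 and Shmt2, a mitochondrial serine enzyme, 0.72 (adjusted p = 0.0737 for both). Atf4 itself fell by 0.42 and by 0.83 (difference 0.41, adjusted p = 0.431). The list did not move as one: Aldh1l2, a mitochondrial folate enzyme, fell by 2.29 and by 2.33, a difference of 0.04. The aminoacyl-tRNA synthetases load amino acids onto tRNA. Of these, 6 of 18 fell with dnBrg1 and 11 of 18 with dnSnf2h, beside 4.76% and 6.72% of all genes. All 18 differences lay above 0, also under quantile normalization, with a median of 0.31. Median centring could not test this, since it raised every gene's difference by the same amount. By limma 0 were called and 6 had an unadjusted p below 0.05. Tars (0.56, adjusted p = 0.334) and Cars (0.50, adjusted p = 0.326) were among the largest differences.

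Ddit4, Gadd45a and Vegfd fell with dnSnf2h and were not called with dnBrg1. Ddit4, an inhibitor of mTORC signalling, fell by 1.11 with dnSnf2h and changed by -0.05 with dnBrg1 (difference 1.06, adjusted p = 0.02), and Gadd45a, a growth-arrest gene, fell by 0.79 and changed by 0.23 (difference 1.02, adjusted p = 0.0179). Vegfd, a growth factor for lymph vessels, read 8.37 and 7.97, then 8.21 and 8.17 with dnBrg1, and 7.39 and 7.79, then 6.10 and 6.49 with dnSnf2h (difference 1.32, SE 0.24, adjusted p = 0.048). Its induced dnSnf2h arrays were the lowest of the 8. Adh7, an alcohol dehydrogenase active on retinol (0.85), Dnph1 (0.83) and Gm10777 (0.90) also fell with dnSnf2h without a call in the dnBrg1 line. Of the 22 measured genes on the p53 target list Ddit4 alone was called, and the median was 0.07. Gadd45a is not on that list.

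**Figure D3:**
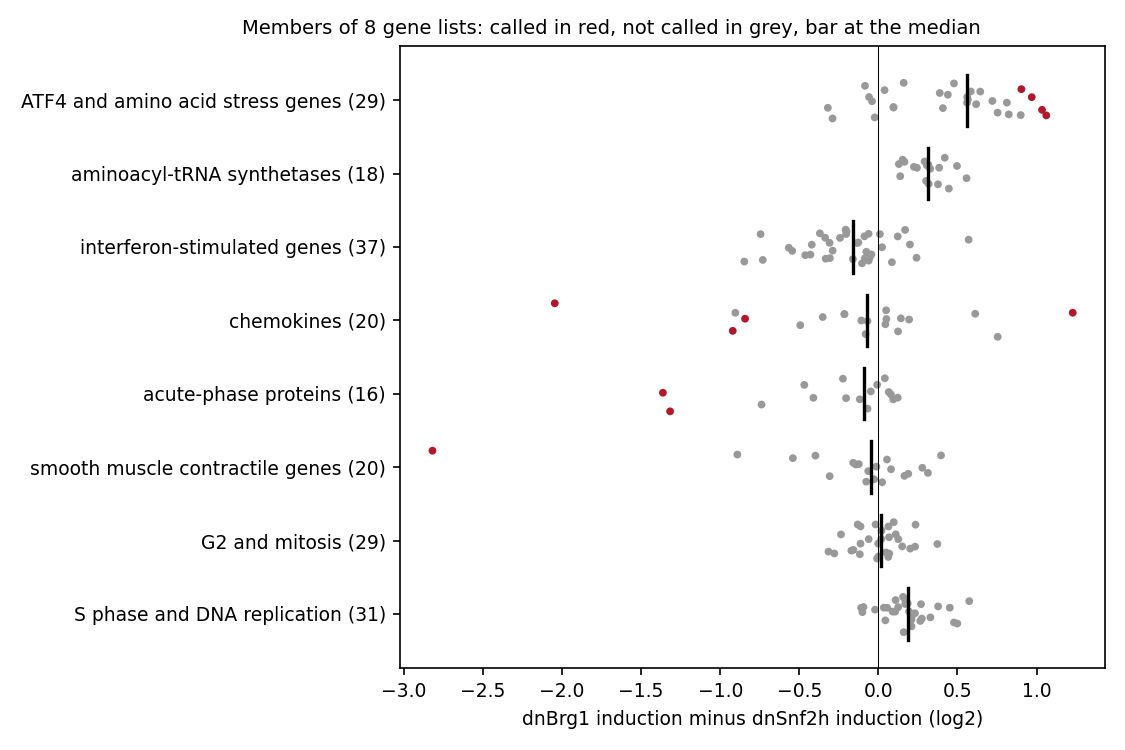
Difference of the inductions (dnBrg1 minus dnSnf2h, log2, x) for each measured member of 8 gene lists (y, number measured in brackets), called members in red and the list median as a bar. The ATF4 list is centred at 0.56 and all 18 aminoacyl-tRNA synthetases lie above 0, while the G2 and mitosis list is centred at 0.02.

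Sting1 and Rtp4 fell with dnBrg1 and rose with dnSnf2h. Sting1, the adaptor that signals from cytosolic DNA, read 6.71 and 6.50, then 5.52 and 5.64 with dnBrg1, and 8.56 and 8.46, then 8.87 and 9.11 with dnSnf2h. It fell by 1.02 and rose by 0.48, a difference of -1.50 (SE 0.17, adjusted p = 0.00291), and the lines did not overlap in either state. Rtp4, an interferon-induced chaperone of receptors, read 5.30 and 5.16, then 4.79 and 4.60 with dnBrg1, and 5.56 and 5.46, then 6.19 and 6.29 with dnSnf2h (difference -1.26, SE 0.16, adjusted p = 0.00552). Of 37 interferon-stimulated genes, 3 rose with dnBrg1 and 9 with dnSnf2h, beside 6.27% and 7.41% of all genes. The count with dnBrg1 was thus close to the share of all genes. None fell in either line, beside 4.76% and 6.72% of all genes. In the difference 0 were called by limma and 8 (21.6%) had an unadjusted p below 0.05, against 1563 of all 19938 genes. Of the 37 differences 29 lay below 0 and 8 above, against 10655 and 9283 of all genes. The list's median was -0.16, beside -0.02 for all genes. It was -0.13 under quantile normalization and -0.09 after median centring, beside -0.0003 and 0.05 for all genes. Irf9, a subunit of the interferon-activated transcription factor, rose by 0.76 with dnSnf2h and changed by -0.09 with dnBrg1 (difference -0.85, adjusted p = 0.0853), and Gbp3, a guanylate-binding protein, rose by 0.63 and changed by -0.12 (difference -0.74, adjusted p = 0.0994). Rtp4 is not on that list.

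In 9 of the 65 genes the lines moved in opposite directions with both inductions called. The 5 that fell with dnBrg1 and rose with dnSnf2h were Tnnt2, Sting1 and Rtp4, above, with Cntnap1, an axonal adhesion protein (-0.73 and 0.54), and Serpinb9b, a protease inhibitor (-0.63 and 0.60). The 4 that rose with dnBrg1 and fell with dnSnf2h were Dynap (0.56 and -0.60), Sirt1, a deacetylase that uses NAD (0.51 and -0.35), Blnk, a signalling adaptor known from B cells (0.49 and -0.37), and Ccnq, a cyclin (0.42 and -0.39). By contrast 1407 genes were called in the same direction in both inductions. The 2 further genes with opposite calls, Csf1 (-0.81, adjusted p = 0.0573) and Mmp19 (-1.05, adjusted p = 0.0549), fell just outside the threshold in the difference, and Qsox1 (0.77, adjusted p = 0.0514) was the nearest gene outside it.

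The remodelers' own subunits were not called in the difference, in which only 0.326% of all genes were. Among 23 SWI/SNF subunits the median was 0.03 and among 13 ISWI subunits -0.03, with 0 calls by limma in both and 1 and 2 members at an unadjusted p below 0.05. Smarca4 differed by 0.07 (95% interval -0.31 to 0.46) and Smarca5 by 0.14 (-0.26 to 0.54). The level of Smarca5 did differ between the lines. Its gap (dnBrg1 line minus dnSnf2h line) was -0.65 in the repressed state (limma adjusted p = 0.00743) and -0.51 after induction (adjusted p = 0.0244). Smarca2, which encodes the alternative SWI/SNF ATPase Brm, read 9.52 and 9.24, then 8.69 and 8.73 with dnBrg1, and 8.50 and 8.88, then 8.29 and 8.55 with dnSnf2h. It fell by 0.68 with dnBrg1 (adjusted p = 0.0114) and changed by -0.27 with dnSnf2h, and the difference of -0.41 did not pass (95% interval -0.86 to 0.05). Smarca1, the alternative ISWI ATPase, lay between 3.13 and 3.62 on the 8 arrays, under the dim bound.

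Cell division genes fell in both lines, and none was called in the difference, in which only 0.326% of all genes were. Of 29 genes of G2 and mitosis 27 fell with dnBrg1 and 29 with dnSnf2h, with median changes of -0.76 and -0.79. Among all genes 4.76% fell with dnBrg1 and 6.72% with dnSnf2h. The median difference was 0.02, or -0.02 under quantile normalization, with 0 calls by limma and 0 members at an unadjusted p below 0.05. Of 31 S phase genes 20 fell with dnBrg1 and 27 with dnSnf2h, and the median difference was 0.19, with 27 members above 0, 0 calls by limma and 3 members at an unadjusted p below 0.05. Of 35 lysosomal genes 16 rose with dnBrg1 and 12 with dnSnf2h, beside 6.27% and 7.41% of all genes. In the difference 0 were called by limma and 5 had an unadjusted p below 0.05. Atp6v1a, a proton pump subunit, rose by 0.80 and by 1.55 (difference -0.75, adjusted p = 0.102). Glucocorticoid receptor targets had 1 of 21 called higher (Ddit4) and 1 lower (Lcn2), and 8 (38.1%) had an unadjusted limma p below 0.05. In all, 18 of the 28 lists held no called member in the difference, with 387 entries measured between them. Only 0.326% of all genes were called, so these lists were not shown to respond alike. The fibroblast and mesenchymal list had a mean level of 8.29 and 8.33 on the repressed and 7.78 and 7.85 on the induced dnBrg1 arrays, and of 8.22 and 8.32, then 7.86 and 8.08 in the dnSnf2h line; of its 17 members 0 were called in the difference by limma and 4 had an unadjusted p below 0.05. The macrophage list, of which 8 to 10 of 16 members were dim on each array, had mean levels of 4.82 to 4.95. Ptprc, which marks all blood leukocytes, lay between 4.31 and 4.65, whereas Cd14 and Cd68 lay above the dim bound on every array. In each line 1 member rose and 1 fell by limma. Cd68 fell by 0.48 with dnBrg1 and Cd14 by 0.70 with dnSnf2h, and no member was called in the difference. The part of other cell types in the chemokine, acute-phase and smooth muscle results was not tested.

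A difference of inductions can come from where a gene starts or where it ends. Both gaps share arrays with the difference, so their values are only set side by side with it. With the drug present, 2069 genes (10.4%) differed between the lines, 1080 higher (5.42%) and 989 lower (4.96%) in the dnBrg1 line. After induction 2213 (11.1%) differed, 1215 higher (6.09%) and 998 lower (5.01%). Of the 65 genes, the starting gap was called in 35 and the gap after induction in 56; 30 differed only after induction, 9 only before and 26 at both times. The gap was wider after induction in 47 genes and wider before it in 18. Csnk1g1 started with a gap of -0.10 and ended at 2.66, and Acta2 started at 0.29 and ended at -2.53, whereas Sting1 had a gap of -1.91 (dnBrg1 line minus dnSnf2h line) at the start and of -3.41 at the end. Mmp3 did the reverse: its gap was 2.0 at the start and 0.71 at the end. Klhl24 began with a gap of 1.20 and Cxcl3 with one of -1.65, and neither gap was as wide after induction. In 12 genes the lines changed places, with both gaps called.

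**Figure D4:**
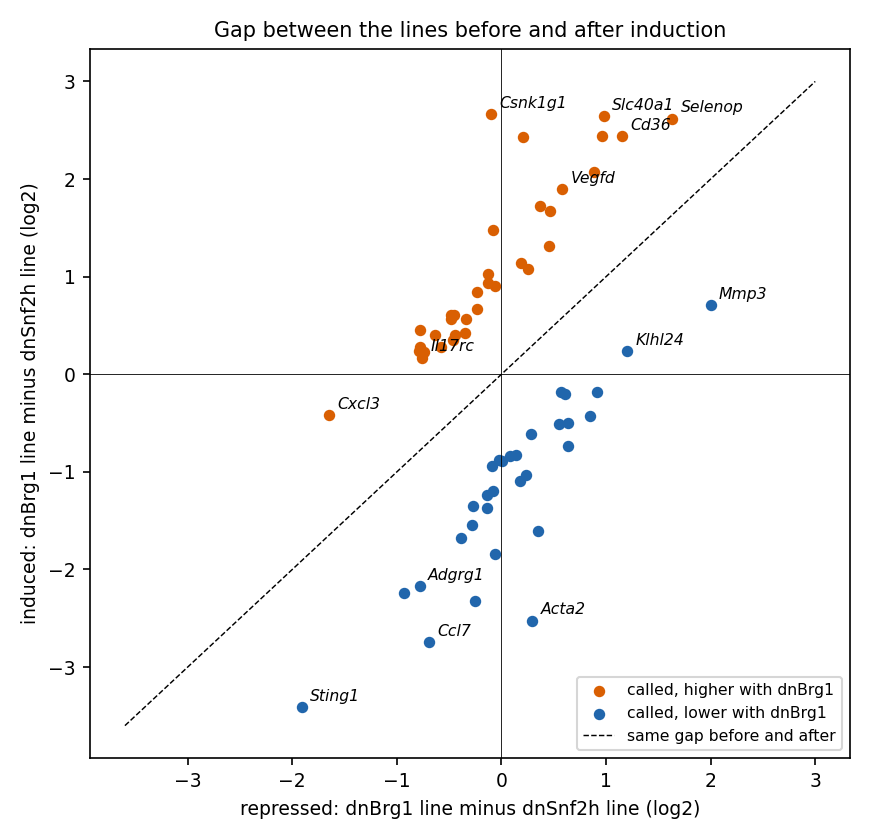
Gap between the lines (dnBrg1 minus dnSnf2h, log2) in the repressed state (x) and after induction (y) for the 65 called genes, orange if higher with dnBrg1 and blue if lower. The 47 genes farther from 0 on the y axis than on the x axis had the wider gap after induction, in some with the lines in reversed order. For Mmp3, Klhl24 and Cxcl3 the lines drew closer.

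The dnChd4 line, in which another remodeler was targeted, gave a reading from arrays that the difference did not use, although it was fitted with the same 8 arrays in a 12-array fit; this comparison was added after values were seen. There 3590 genes (18.0%) were called on induction, 2230 higher (11.2%) and 1360 lower (6.82%). Of the 65 genes, dnChd4 raised 29 and lowered 15. Its change lay nearer to the dnSnf2h change in 58 of the 65 genes (89.2%) and nearer to the dnBrg1 change in 7. Over all genes the share nearer to dnSnf2h was 50.7%, and among the 552 genes that were not called but differed by 0.5 or more it was 69.6%. Csnk1g1 changed by 0.26 with dnChd4 and Auts2 by -0.13, as against 3.01 and 2.16 with dnBrg1. Acta2 rose by 2.56, Nppb by 2.31 and Rptor by 1.76 with dnChd4, beside 2.32, 2.06 and 1.98 with dnSnf2h. Mcam rose by 3.78 and Lcp1 by 2.91 with dnChd4, more than in either of the other lines by value, and Slc1a5 fell by 1.61. Rtp4 was among the 7 exceptions: it fell by 0.40 with dnChd4 and by 0.53 with dnBrg1, and rose by 0.73 with dnSnf2h.

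**Figure D5:**
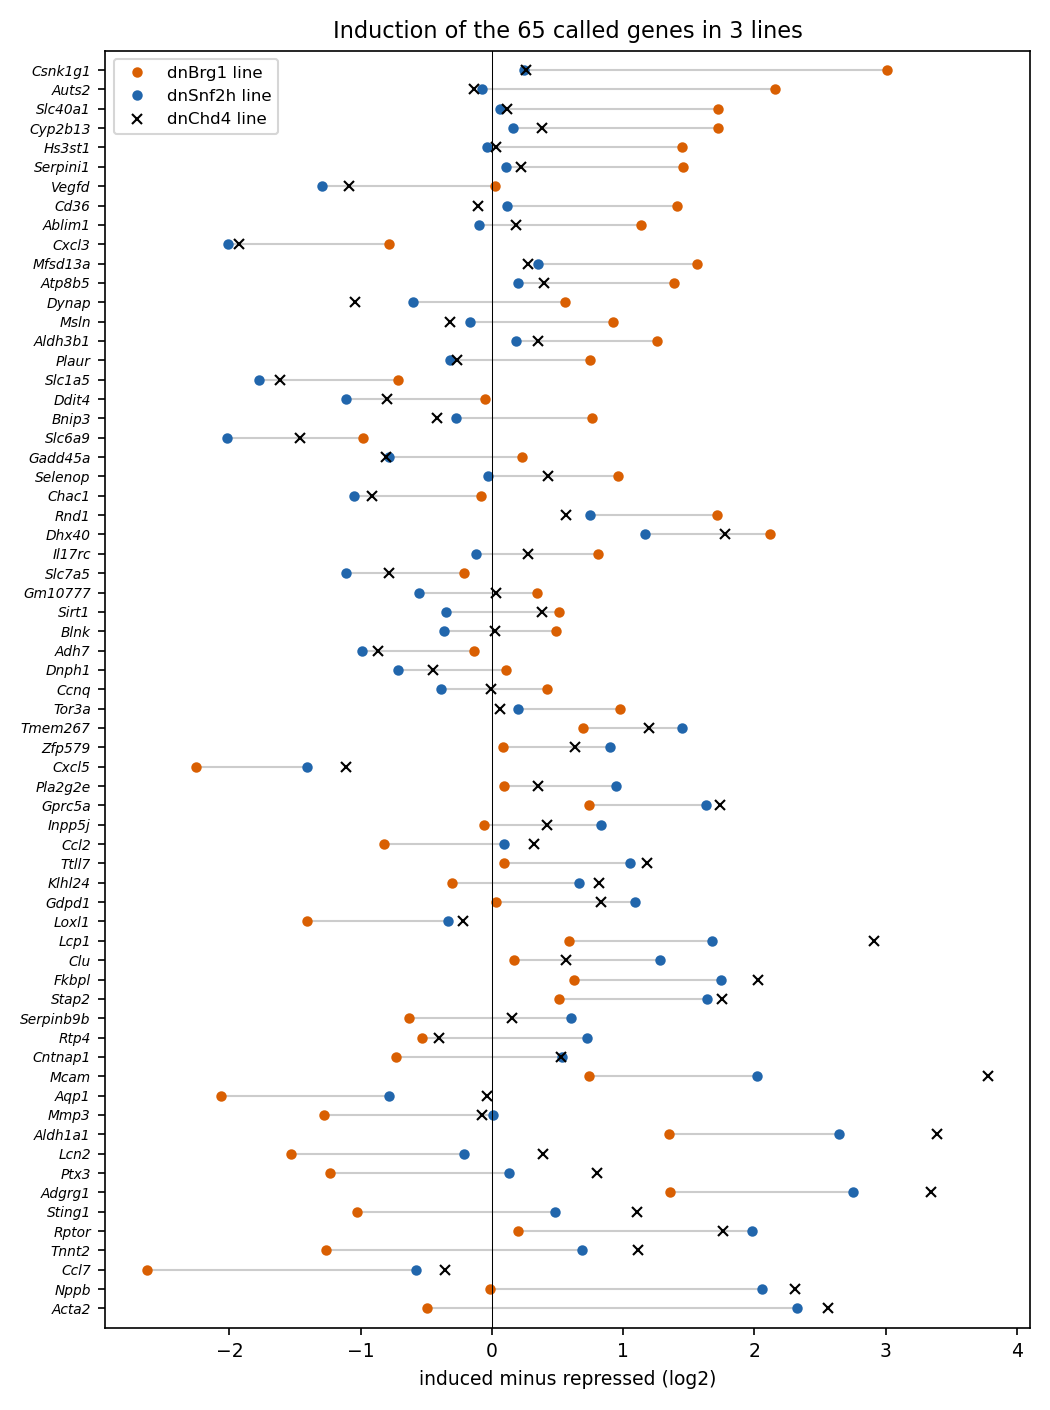
Induced-minus-repressed change (log2, x) of each of the 65 called genes (y, ordered by the difference) in the dnBrg1 line (orange), the dnSnf2h line (blue) and the dnChd4 line (cross). The cross lies nearer to the blue point in 58 genes and nearer to the orange point in 7.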

How the data were processed

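About 100 ng of total RNA per sample was hybridised, each sample to its own whole-transcript Affymetrix array (Mouse Gene 1.0 ST). The authors deposited 1 log2 value per probe set and array, made with Affymetrix Expression Console per the submitters' processing notes; the software version, the genome build and the way probes were summarized: not given in the sources used here. The log2 scale was judged from the values, which ran from 2.02 to 14.86. An array gives no read depth, and 2 arrays per group limit the precision. The platform annotation gave 21789 of 35557 probe sets 1 symbol, 1621 several and 12147 none; 21698 matched the reference table by gene number and 0 symbols were updated. For 999 genes with several probe sets, the one with the highest mean over the 17 arrays was kept, leaving 19938 genes.

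The deposited values were not rescaled. Groups came from the sample titles. One mean per group was fitted to the 8 arrays with limma 3.58.1 in R 4.3.3 (lmFit, contrasts.fit, eBayes; two-sided; Benjamini-Hochberg over all genes; threshold 0.05), and every adjusted p given is limma's. The script was tested on simulated data. The dnChd4 values come from the same model on 12 arrays. Named genes were the 12 highest and 12 lowest called differences, the 3 members of each of 28 lists (579 of 613 entries measured) with the smallest p, up to 6 genes per direction with opposite inductions, and Smarca4, Smarca5, Smarca2 and Smarca1; all other called genes, and further list members given for contrast, were named after their values were seen. The comparison and the lists were chosen with earlier results of these data known. Lists were described by counts and medians, with no set test. Alternatives were other sets of arrays, a replicate block, other variance moderation, array weights, 2 scalings, a filter on dim genes, other probe set rules and each array left out. Promoter windows and gene order came from RefSeq (GRCm38.p6), used by gene name only. The other measurements of the series were not analysed here.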

Additional observations from a re-analysis of the deposited data

Results flagged for a closer look

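The 65 genes below had inductions that differed between the 2 lines by the test of the difference itself (limma, adjusted p below 0.05); the values are the dnBrg1 induction minus the dnSnf2h induction on the log2 scale. Groups of 2 arrays are too small for a test of single outlying arrays.

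Genes that rose with dnBrg1 and were not called with dnSnf2h gave Csnk1g1 2.76, Auts2 2.23, Slc40a1 1.66, Cyp2b13 1.57, Hs3st1 1.48, Serpini1 1.35, Cd36 1.29, Ablim1 1.23, Atp8b5 1.19, Msln 1.09, Aldh3b1 1.08, Plaur 1.07, Bnip3 1.04, Selenop 0.98, Il17rc 0.93 and Tor3a 0.77. Genes that rose in both lines, more with dnBrg1, gave Mfsd13a 1.21, Rnd1 0.97 and Dhx40 0.95. Genes that rose with dnBrg1 and fell with dnSnf2h gave Dynap 1.16, Sirt1 0.86, Blnk 0.85 and Ccnq 0.81. Genes that fell with dnSnf2h without a call in the dnBrg1 line gave Vegfd 1.32, Ddit4 1.06, Gadd45a 1.02, Chac1 0.97, Slc7a5 0.90, Gm10777 0.90, Adh7 0.85 and Dnph1 0.83. Genes that fell in both lines, more with dnSnf2h, gave Cxcl3 1.23, Slc1a5 1.06 and Slc6a9 1.03.

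On the lower side, genes that fell with dnBrg1 and were not called with dnSnf2h gave Ccl2 -0.92, Loxl1 -1.07, Mmp3 -1.29, Lcn2 -1.32 and Ptx3 -1.36. Genes that fell in both lines, more with dnBrg1, gave Cxcl5 -0.84, Aqp1 -1.28 and Ccl7 -2.05. Genes that fell with dnBrg1 and rose with dnSnf2h gave Serpinb9b -1.23, Rtp4 -1.26, Cntnap1 -1.27, Sting1 -1.50 and Tnnt2 -1.96. Genes that rose with dnSnf2h without a call in the dnBrg1 line gave Zfp579 -0.82, Pla2g2e -0.85, Inpp5j -0.90, Ttll7 -0.96, Klhl24 -0.97, Gdpd1 -1.06, Clu -1.11, Rptor -1.78, Nppb -2.07 and Acta2 -2.82. Genes that rose in both lines, more with dnSnf2h, gave Tmem267 -0.75, Gprc5a -0.89, Lcp1 -1.10, Fkbpl -1.12, Stap2 -1.13, Mcam -1.28, Aldh1a1 -1.29 and Adgrg1 -1.39. A call in one line and none in the other is described here only for genes whose difference was itself called.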

How the results depend on the processing

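All 65 called genes kept their direction under every alternative that tested them. The filter on the dimmest 30% left 6 of them untested, Cd36 and Slc40a1 among them. In the counts of settings below, an untested gene is not counted as called under that filter. The number of genes called in the difference, 65, became 7 (5 higher, 2 lower) with all 17 arrays in the fit and 126 (58 higher, 68 lower) with the 12 arrays of 3 dominant-negative lines, and all 7 and 63 of the 126 were among the 65. Median centring gave 56 calls with 19 lower in place of 31. Leaving out each array in turn gave 15 to 88 calls, of which 7 to 44 were higher and 7 to 51 lower; where an array was left out, the lone array of its group was assumed to vary like the others. With all 17 arrays the dnBrg1 induction had 68 calls, the dnSnf2h induction 1, the repressed gap 775 and the induced gap 840. Array weights gave 3454 calls for the dnBrg1 induction and 3344 for the induced gap. The leave-one-out ranges were 655 to 2794 for the dnBrg1 induction, 1494 to 3206 for the dnSnf2h induction, 878 to 2502 for the repressed gap and 756 to 2817 for the induced gap. The cause of these shifts was not tested.

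With the replicate number as a block, 64 genes were called, 60 of them among the 65. Deviations of same-numbered arrays correlated at 0.016 between the repressed and induced dnBrg1 arrays and at 0.313 between the repressed and induced dnSnf2h arrays. Across the lines they correlated at -0.393 to 0.056. The numbers were not taken as pairs. The block held 1 replicate effect for both lines, so it could not test pairing within a line. Called in all 9 other settings and all 8 leave-one-out fits were 4 genes, Auts2, Ccl7, Csnk1g1 and Hs3st1; 34 lost their call among those 9 settings only with 17 arrays, and 2, Tmem267 and Tor3a, were called in no leave-one-out fit. Of the alternative values for called genes, 768 kept their call and 396 lost it. Of 70 named genes outside the threshold, 10 passed it in at least 1 setting. Array signal limits what can be measured for 8 called genes whose lower starting level was under 4.77.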
